A study of Mus musculus with 6 samples.

Results

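The 881 regions described here are the widest merged stretches of the mouse autosomes that carried H3K79me2 in every library of the study, and are called domains below. A domain was a region of at least 50 kb formed by joining overlapping broad peaks (by at least 1 bp) of 4 libraries on chromosomes 1 to 19, in which each library had a peak. They were 881 of 49835 merged regions, of which 20216 held a peak in all 4 libraries, and were compared with the 2651 shared regions of 20 to 50 kb. Peak presence and merged width chose the domains, so both are given as description and are not results.

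H3K79me2 was profiled by ChIP-seq in N2a cells, a mouse neuroblastoma line, 3 days after transfection of a hairpin vector and selection with puromycin. CTR cells received the non-targeting pLKO.1-shCTR and NPM1 KD cells pLKO.1-shNpm1, a single hairpin against the nucleolar histone chaperone NPM1, and both were otherwise treated alike. Each group had 2 libraries, which by the study's methods came from different passages and separate transfection batches, and a pooled input for which no peak list was analysed here. The number of reads per library was not given in the lists, RNA was not measured, and neither the Npm1 transcript nor its protein could be used to check the labels here.

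H3K79me2 is placed on the globular part of histone H3 by DOT1L, the only known methyltransferase of this residue. DOT1L works with the partners AF10, AF9 and ENL, of which AF9 and ENL also join the super elongation complex, and the mark covers the first part of transcribed genes and fades toward their ends. In leukaemias with MLL fusions, recruited DOT1L is known to spread it over long stretches of target genes.

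Sequence is shown for the places on which the descriptions below turn. The first 4 are windows of 250 bases before to 50 bases after an annotated gene start, on the gene's strand, with every CG in capitals. Rere led the domain with the strongest mark among the 10 widest, Dot1l encodes the enzyme of the mark, and Dleu2 and Lncpint led domains that held no coding gene. The last is the middle of a 972-bp stretch in the Xkr6 domain that was covered in both NPM1 KD libraries and in no CTR library. All are from the RefSeq sequence of GRCm38.p6.
Rere chr4:150281666-150281965 (plus strand): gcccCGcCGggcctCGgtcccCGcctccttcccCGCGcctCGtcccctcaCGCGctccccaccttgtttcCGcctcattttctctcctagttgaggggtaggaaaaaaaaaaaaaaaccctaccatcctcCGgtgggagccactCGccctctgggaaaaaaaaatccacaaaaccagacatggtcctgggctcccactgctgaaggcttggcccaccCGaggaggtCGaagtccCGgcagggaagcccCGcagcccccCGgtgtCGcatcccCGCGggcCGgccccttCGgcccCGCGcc
Dot1l chr10:80754953-80755252 (plus strand): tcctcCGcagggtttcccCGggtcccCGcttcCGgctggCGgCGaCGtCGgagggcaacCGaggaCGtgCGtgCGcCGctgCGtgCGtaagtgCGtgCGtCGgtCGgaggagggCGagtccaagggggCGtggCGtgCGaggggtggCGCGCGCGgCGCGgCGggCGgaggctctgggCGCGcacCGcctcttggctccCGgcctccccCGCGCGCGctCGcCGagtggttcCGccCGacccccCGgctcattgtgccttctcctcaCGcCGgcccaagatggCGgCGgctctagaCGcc
Dleu2 chr14:61682324-61682623 (minus strand): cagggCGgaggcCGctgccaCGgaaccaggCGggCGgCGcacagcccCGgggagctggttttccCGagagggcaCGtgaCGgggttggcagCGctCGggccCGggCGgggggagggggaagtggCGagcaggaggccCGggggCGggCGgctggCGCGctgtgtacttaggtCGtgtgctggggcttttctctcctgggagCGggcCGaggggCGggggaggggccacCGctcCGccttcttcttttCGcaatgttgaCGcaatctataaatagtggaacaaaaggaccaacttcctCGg
Lncpint chr6:31218425-31218724 (minus strand): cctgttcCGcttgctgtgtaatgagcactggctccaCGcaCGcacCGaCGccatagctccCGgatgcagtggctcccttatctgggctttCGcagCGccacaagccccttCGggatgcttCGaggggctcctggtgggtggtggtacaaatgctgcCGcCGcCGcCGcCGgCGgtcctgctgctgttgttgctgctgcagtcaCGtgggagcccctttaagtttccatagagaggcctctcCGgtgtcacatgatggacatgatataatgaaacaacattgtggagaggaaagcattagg
Xkr6 run chr14:63683189-63683488 (plus strand): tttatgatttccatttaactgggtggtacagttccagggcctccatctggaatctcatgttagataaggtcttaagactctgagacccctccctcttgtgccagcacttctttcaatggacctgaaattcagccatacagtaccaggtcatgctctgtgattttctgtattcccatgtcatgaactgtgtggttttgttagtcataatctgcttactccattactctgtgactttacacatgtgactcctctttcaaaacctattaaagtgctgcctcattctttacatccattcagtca
The Dot1l window held 49 CG pairs, Dleu2 29, Rere 24 and Lncpint 18. Where a gene had several such windows inside its domain, the one with the most CG was printed, so these counts are the highest of each gene. The 300 bases of the Xkr6 run held 0 CG and 0 repeat-masked bases.

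Domains also held 81 mature microRNA sequences from 51 microRNA genes, in 43 domains. Arms from the domains without a coding gene, others of the same seed and 1 from the HoxC cluster are shown with the seed (bases 2 to 8) in capitals, from RefSeq on GRCm38.p6.
mmu-miR-15a-5p chr14:61632075-61632096 (minus strand): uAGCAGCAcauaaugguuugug
mmu-miR-16-5p chr14:61631936-61631957 (minus strand): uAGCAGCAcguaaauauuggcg
mmu-miR-15b-5p chr3:69009775-69009796 (plus strand): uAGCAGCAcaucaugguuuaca
mmu-let-7c-5p chr15:85706616-85706637 (plus strand): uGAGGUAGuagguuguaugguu
mmu-let-7b-5p chr15:85707325-85707346 (plus strand): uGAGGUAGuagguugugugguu
mmu-miR-137-3p chr3:118433901-118433923 (plus strand): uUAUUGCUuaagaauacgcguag
mmu-miR-196a-5p chr15:102973365-102973386 (plus strand): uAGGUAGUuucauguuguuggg
Mir15a and Mir16-1 lay in the Dleu2 domain on chromosome 14, and their shared seed AGCAGCA was also that of Mir15b and Mir16-2, which lay in a second domain at Smc4, a condensin subunit, on chromosome 3. The let-7 pair with seed GAGGUAG lay in the Lncppara domain on chromosome 15. Mir137, a microRNA of neurons, lay in the domain of the noncoding gene Gm26871 and Mir196a-2 in the HoxC cluster.

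The domains added up to 72.3 Mb. Their median width was 68.7 kb, with quartiles of 57.4 and 91.9 kb and a range of 50.1 to 451 kb, and 164 domains reached 100 kb, 59 reached 150 kb and 20 reached 200 kb. Just inside the limit stood the domains at Trim24 (50072 bp), Stxbp5 (50106 bp) and Zranb1 (50116 bp), and just outside it the regions at Zmym4 (49968 bp), Kpna3 (49972 bp) and Ppp2r2b (49983 bp).

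**Figure D1:**
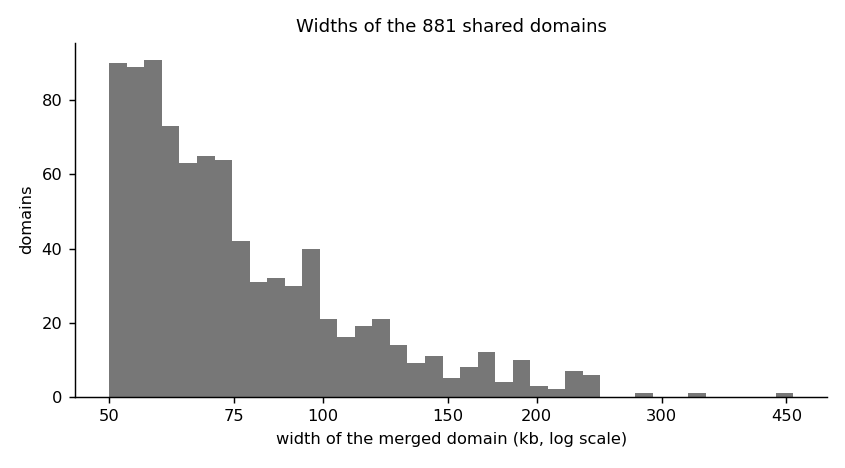
Number of domains (y axis) by merged width in kb (x axis, log scale) for the 881 domains. Counts decline from the limit of 50 kb to a thin tail that ends with Magi1 at 451 kb.

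The widest domain, at 451 kb, covered most of Magi1, a scaffold protein of cell junctions, and was followed by the domains of Tcf4 (343 kb), a basic helix-loop-helix transcription factor, and Efna5 (277 kb), a membrane-bound guidance ligand. Domains of 225 to 246 kb lay at Tmtc2, at Ank3, which encodes ankyrin-G of the axon initial segment, at Ext1, a heparan sulfate polymerase, at the transporter gene Slco3a1, at Gse1, at the transcriptional co-regulator Rere and at the neuronal transcription factor Myt1l. Of these 10, Rere alone was a single peak in all 4 libraries.

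Magi1 was broken into 7 and 6 peaks in CTR 1 and 2 against 1 and 2 in NPM1 KD 1 and 2. Covered length was 447339 and 445790 bp in the CTR libraries and 450552 and 450513 bp in the NPM1 KD libraries. Both NPM1 KD libraries were thus less broken and longer than both CTR libraries at Magi1. At Rere the covered length was 232820, 232632, 232723 and 232698 bp in the same order, and the groups overlapped.

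**Figure D2:**
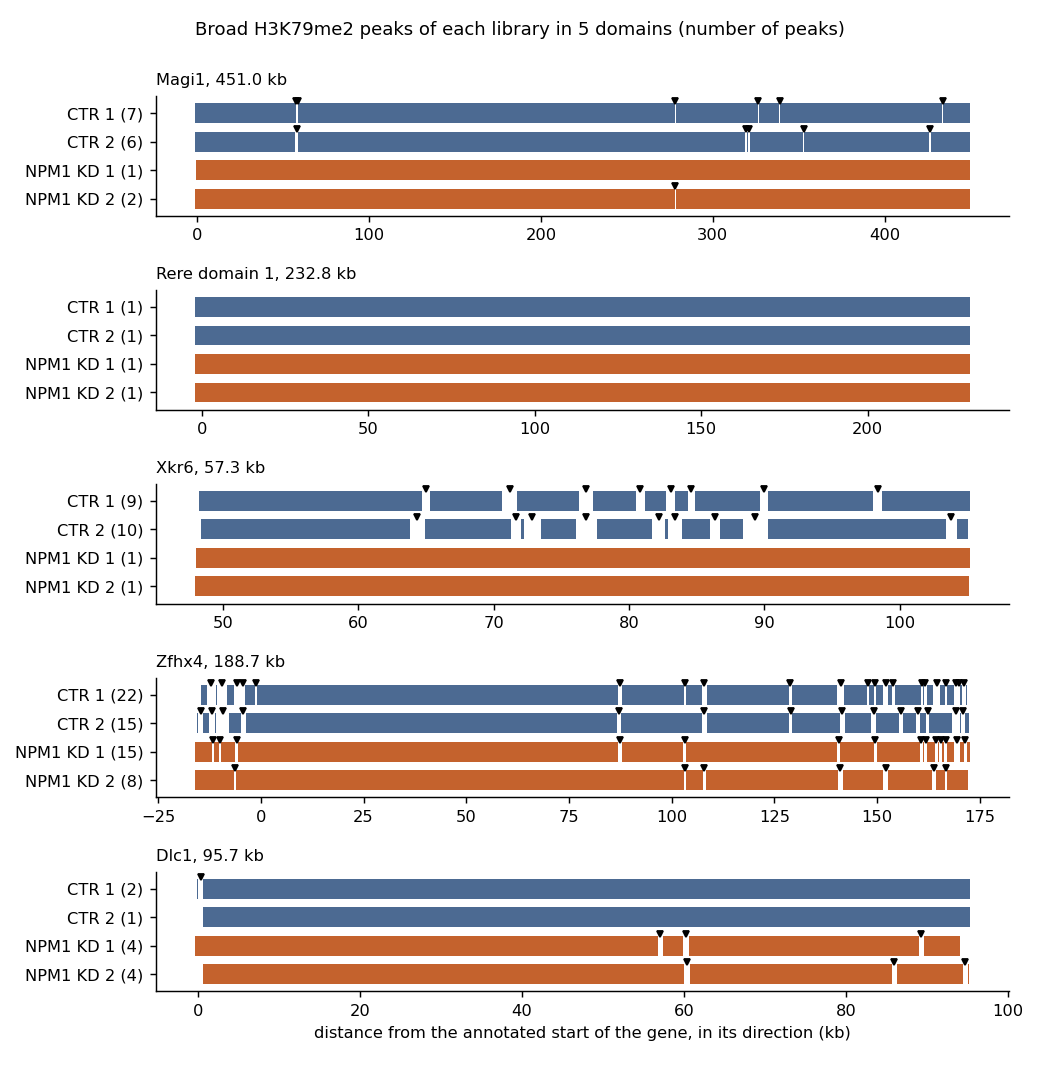
Broad peaks of each library (bars; CTR in blue, NPM1 KD in orange) in 5 domains against the distance in kb from the annotated start of the leading gene, with the number of peaks in brackets and a black triangle at each gap between peaks. Rere is unbroken in all 4 libraries, Xkr6 has 9 and 10 peaks in CTR and 1 in each NPM1 KD library, and Dlc1 has 2 and 1 peaks in CTR and 4 in each NPM1 KD library.

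Domains lay almost wholly in genes. Of their bases, 96.3% were inside protein-coding genes and 98.1% inside genes of any type, and 830 of 881 domains (94.2%) were more than 90% inside coding genes. In all, 739 coding genes had their annotated start in a domain, which is 3.55% of the 20807 autosomal coding genes, and 1038 had some part of their body in one. Long genes led them. The leading coding genes, those with the most bases in a domain, had a median length of 116 kb against 17.6 kb over all autosomal coding genes, and 450 of 810 (55.6%) were at least 100 kb long against 11.4% of all. Genes starting in domains had a median length of 79.2 kb, and those starting in the 20 to 50 kb regions 34.1 kb. The width limit itself favours long genes, so these values carry no test.

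**Figure D3:**
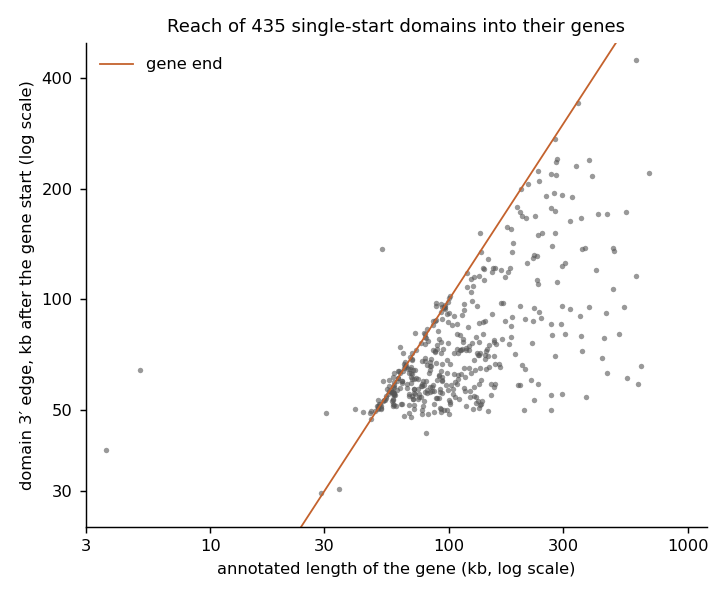
Distance in kb from the gene start to the 3′ edge of the domain (y axis, log scale) against annotated gene length in kb (x axis, log scale) for the 435 domains with a single coding start, that of the leading gene. Points lie near the line of the gene end for genes under 75 kb and below it for longer genes.

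A single coding gene start was found in 452 domains (51.3%), none in 312 and at least 2 in 117. For the 435 domains whose single start was that of the leading gene, the 5′ edge lay at a median of 1.06 kb upstream of the start, within 5 kb upstream in 402 (92.4%), and 434 of the 435 reached further downstream than upstream. They held a median of 72.7% of the gene. The share fell with gene length, from 97.7% in 119 genes under 75 kb to 67.2% in 195 genes of 75 to 150 kb, 50.3% in 85 genes of 150 to 300 kb and 28.0% in 36 genes of 300 kb upward. The domain reached the gene end in 40, 15, 0 and 0 of them, so in genes of 150 kb upward the domain stopped inside the gene. Median width still rose over the same 4 length classes, from 57.8 to 69.5, 98.6 and 120 kb.

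Within these 435 domains the highest narrow summit lay close to the start. Its median position was 1.22 and 2.1 kb downstream of the start in CTR 1 and 2 and 1.08 and 3.01 kb in NPM1 KD 1 and 2, and it was within 5 kb of the start in 350, 341, 359 and 310 domains. NPM1 KD 2 had the most distant summits of the 4 libraries.

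Among the 312 domains with no annotated coding gene start, 186 held the start of at least 1 coding transcript, that is, a start inside the annotated gene. The Ank3 domain is of this kind, with 7 coding transcript starts, a width of 245 kb and a 3′ edge 378 kb after the annotated start. In all, 127 domains held no coding transcript start, and 116 of those lay inside a coding gene. The 5′ edge was within 3 kb after a coding start in 42 of the 116 and over 10 kb after one in 69.

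Some genes carried several domains. For 51 leading genes there were 2 or more, which made up 111 domains, and 32 pairs of neighbouring domains lay within 5 kb of each other, 31 of them in the same leading gene. Gse1 held domains of 233430 and 100990 bp with 279 bp between them. Rere held 2 domains 3274 bp apart, which together were 340 kb wide, and Maml3, a Notch co-activator, 2 domains 2912 bp apart that summed to 313 kb. Spacers under 5 kb were 45.4% repeat-masked, against 24.3% of domain bases and 33.5% of the autosomes. Whether reads could be placed uniquely in the spacers was not tested.

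Neighbourhoods with many gene starts formed a smaller class of 34 domains with 3 or more. The Hsf1 domain (chr15:76452478-76542902, 90.4 kb) held 8 coding starts, those of the heat shock regulator Hsf1, the triglyceride enzyme Dgat1, the ribosome biogenesis factor Bop1, the transcription factors Scx and Scrt1, and Tmem249, Fbxl6 and Slc52a2. The Safb2 domain (chr17:56562482-56630301) held 6 starts, among them the scaffold attachment factors Safb and Safb2, the ribosomal protein gene Rpl36 and the mitochondrial protease Lonp1. A domain of 53.9 kb held 6 HoxC genes (Hoxc4, Hoxc5, Hoxc6, Hoxc8, Hoxc9 and Hoxc10), which pattern the body axis and lie in tandem. The Ddx42 domain held the RNA helicase gene itself, the proteasome subunit Psmc5, the rRNA methyltransferase Ftsj3, Strada and Ccdc47, and the Zbtb7b domain held Zbtb7b, the adaptor Shc1, Cks1b, Flad1 and Lenep. The Rbm14 domain (56635 bp) was the other with 3 coding genes of a shared name stem, the RNA-binding genes Rbm14, Rbm4 and Rbm4b. Of 170 pairs of neighbouring starts within domains, 58 were divergent, 50 tandem and 62 convergent.

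The HoxC domain was 3 and 2 peaks in CTR 1 and 2 against 1 and 2 in NPM1 KD 1 and 2, and its highest narrow fold was 38.5, 38.1, 35.4 and 23.8. The fold is the pileup at a narrow peak's summit over the background that the peak caller set for that library. NPM1 KD 2 was well below the other 3 libraries here. The Hsf1 domain was 1, 3, 1 and 2 peaks and the Safb2 domain 3, 5, 1 and 6, so that the groups overlapped in both.

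By the gene types of GENCODE M21, a coding gene was missing from 11 domains, while 870 were led by 1. The widest of the 11 were Pvt1 (185466 bp), a long noncoding RNA next to Myc, and Lncpint (172490 bp). Those at Trerf1, 9530059O14Rik, Gm26871, Lncppara, Dleu2, Gm48751, AC161519.2 and Gm38399 had a leading gene not typed as coding in that release, which other annotations may type otherwise. Another domain of 68708 bp (chr9:67566618-67635325) overlapped no gene of any type. Pvt1 was 2, 1, 1 and 2 peaks and Dleu2 a single peak in each library. The Lncppara domain had the strongest mark of these, with a highest narrow fold of 61.4 and 58.3 in CTR and 47.4 and 42.5 in NPM1 KD, the NPM1 KD libraries being the lower in both cases.

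The genes of 14 lists were counted against the 3.55% of all autosomal coding genes that started in a domain, without a test, since long genes are over-represented by the choice. Chromatin remodellers and architectural proteins had 13 of 36 starts in domains (36.1%) and 17 with part of their body, including the BAF subunits Arid1a, Arid1b and Arid2, Chd1, Chd2, Chd6, Chd7 and Chd9, the cohesin loader Nipbl and Ctcf. Chromatin-modifying enzymes had 11 of 51 (21.6%), among them the methyltransferases Kmt2c, Kmt2d, Kmt2e, Nsd2, Nsd3 and Ash1l, the demethylase Kdm1a and the DNA methyltransferase Dnmt3a. Kinases of growth signalling had 9 of 33 (27.3%), and splicing and RNA-binding factors 7 of 44 (15.9%).

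The DOT1L and super elongation complexes had 4 of 16 starts (25%), in Dot1l, its partner Mllt10 (AF10), the scaffold Aff4 and the cyclin Ccnt1, and the bodies of Mllt3 (AF9) and Aff1 also lay partly in domains. Of 20 pausing and elongation factors, Cdc73 of the PAF complex alone started in one (5.0%). Neuroblastoma transcription factors had 4 of 23 (17.4%), namely Hand2, Meis2, Klf7 and Satb1. Ubiquitin ligases had 3 of 19, neuronal adhesion and synapse genes 4 of 38 and nucleolar factors 2 of 23 (Polr1a and Bop1). Among the smallest counts were 1 of 36 cell cycle genes (E2f3) and 1 of 20 respiratory chain genes (Atp5c1). Cytoplasmic ribosomal protein genes had 0 of 25, although all 25 had a shared region of some width. The list of microRNA and snoRNA host noncoding RNAs had 1 of 22 (Kcnq1ot1). The share of coding genes is no measure for this noncoding list. Its count does not show that hosts are rare in domains, which held 51 microRNA genes with a mature sequence.

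As a check of the cell line, 10 of 12 neuroblastoma and neuronal markers overlapped a shared region of any width, against 0 of 4 blood, 0 of 4 liver and 1 of 4 muscle markers. So did 33 of 36 cell cycle genes and 28 of 38 neuronal adhesion and synapse genes. The share of all autosomal coding genes was not counted, so the markers do not by themselves identify the line. Hand2, a transcription factor of sympathetic neurons, was the only one of the 12 markers in a domain. That domain was 71.8 kb wide around a gene of 3.65 kb and also covered Hand2os1, and its highest narrow fold was 61.0 and 56.3 in CTR and 46.3 and 38.8 in NPM1 KD. The NPM1 KD libraries were the lower here. The Foxd1 domain, named after its values were seen, was 66.9 kb wide around a gene of 5.06 kb. Both stand far to the left in the plot of domain reach by gene length.

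Of the 6 genes that the study discusses, Dot1l and Ctcf lay in domains, and Npm1, Ezh1, Ezh2 and Kdm3a had narrower shared regions. The Dot1l domain (chr10:80753120-80808299, 55.2 kb) also held the starts of the splicing factor Sf3a2, Plekhj1 and the hormone gene Amh. It was 2 and 4 peaks in CTR 1 and 2 against 2 and 4 in NPM1 KD 1 and 2, and covered length was 53180, 49820, 54272 and 51186 bp, so the groups overlapped in both. The highest narrow fold was 53.9 and 43.8 in CTR and 38.8 and 31.7 in NPM1 KD, with both NPM1 KD libraries below both CTR libraries. In limma over all regions its log2 difference in fold was −0.47 ± 0.18 (SE) with an adjusted p of 0.851, so it was not called.

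The Ctcf domain (71.9 kb), which it shared with Ripor1 and Agrp, was 6 peaks in each CTR library and 2 and 3 in the NPM1 KD libraries. Its covered length was 68583 and 62377 bp in CTR and 70622 and 69295 bp in NPM1 KD. Both NPM1 KD libraries were thus longer and less broken than both CTR libraries. In limma the adjusted p for covered length was 0.651. The same broad peaks formed the domain, so this value decides nothing. The highest narrow fold was 34.1 and 34.6 in CTR and 28.6 and 32.0 in NPM1 KD.

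Promoters of domain genes were mostly CpG-rich, as were those of narrower shared regions. At least 15 CG in the window of 300 bases defined above were found at 80.7% of coding starts in domains, 82.3% in the 20 to 50 kb regions and 43.8% of all autosomal coding genes. The letters TATAAA, on either strand, were found in 4.19%, 5.25% and 12.7% of the same windows.

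How each library split the domains was then compared. The number of broad peaks inside them was 2747 and 2381 in CTR 1 and 2 against 1523 and 1938 in NPM1 KD 1 and 2 (2564 ± 259 in CTR and 1730.5 ± 293 in NPM1 KD, mean ± SD, n = 2). The number of domains that were a single peak was 212, 279, 505 and 353 (245.5 ± 47.4 and 429.0 ± 107, n = 2). Both NPM1 KD libraries had fewer peaks and more unbroken domains than both CTR libraries. The same broad peaks formed the domains, so these counts are a description with no test. In 705 domains chosen on the CTR libraries alone the differences were −82.5 peaks and 49.5 unbroken domains, and the groups overlapped.

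The largest peak of a domain filled a median of 84.7%, 89.3%, 99.1% and 96.7% of its width in the 4 libraries, and 579, 607, 743 and 681 domains held a peak of at least 50 kb of that library's own. In 109 domains all 4 libraries had a single peak and in 235 all had 2 or more. In 98 domains both NPM1 KD libraries had 1 peak and both CTR libraries several, and in 7 the reverse. The matching shares of all shared regions were not counted, so these numbers are not read as a feature of the domains. NPM1 KD 1 was the only library with a single peak in 159 domains, against 57 for NPM1 KD 2, 36 for CTR 2 and 10 for CTR 1. For 68 domains no library had a peak of 50 kb, so that their width came from joining the libraries.

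**Figure D4:**
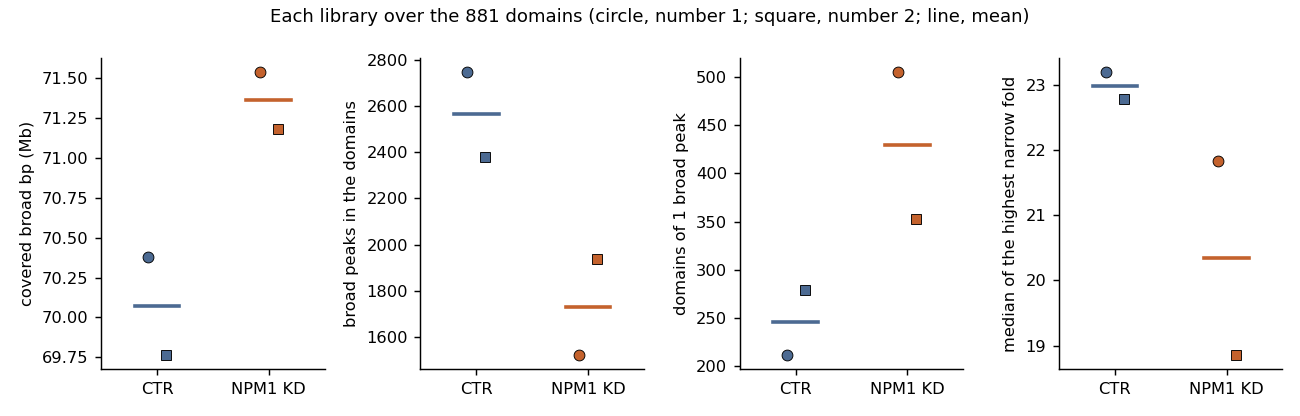
Values of each library over the 881 domains, namely covered broad length (Mb), number of broad peaks, number of domains of 1 broad peak, and median of the highest narrow fold; circles are number 1, squares number 2, lines group means, and the y axes do not start at 0. The NPM1 KD libraries lie above CTR in covered length and single-peak domains and below CTR in number of peaks and fold, with NPM1 KD 2 lowest in fold at 18.9.

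The lists differed in how close together 2 broad peaks could lie. The shortest gap between 2 broad peaks was 485 and 713 bp in CTR 1 and 2 against 589 and 485 in NPM1 KD 1 and 2, and the background pileup recovered from the folds was 11.9, 7.65, 8.99 and 11.8. CTR 1 and NPM1 KD 2 matched in both values and had 2747 against 1938 peaks and 212 against 353 unbroken domains. When gaps of up to 713 bp were joined in every library, 1670, 2375, 1187 and 1227 peaks and 445, 279, 669 and 636 unbroken domains remained, and the groups still did not overlap. The part of sequencing depth in these counts was not tested further.

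Covered length in domains was 70.4 and 69.8 Mb in CTR 1 and 2 against 71.5 and 71.2 in NPM1 KD 1 and 2, or 97.3%, 96.5%, 98.9% and 98.4% of the domain bases. The NPM1 KD libraries covered 1.29 Mb more on average (71.4 ± 0.253 against 70.1 ± 0.435 Mb, n = 2), a description for the same reason. In the domains chosen on CTR alone the difference was 0.141 Mb and the groups overlapped. Domains made up a smaller share of what the NPM1 KD libraries covered on all autosomes, 28.7% and 29.6% against 30.3% and 31.7%, and their total covered length was 249 and 240 Mb against 232 and 220 Mb. Coverage was therefore higher in NPM1 KD outside the domains too.

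Because the merged width drew on all libraries, a library with longer peaks could itself bring regions into the set. Domains chosen on 1 CTR and 1 NPM1 KD library were therefore measured in the other two. On CTR 1 and NPM1 KD 1, 813 domains were chosen, which CTR 2 covered over 63.6 Mb and NPM1 KD 2 over 64.5 Mb, with 80.7% of them longer in NPM1 KD 2 and 1843 against 1535 peaks. The other 3 choices gave 774 to 811 domains, with 0.512 to 0.890 Mb more in NPM1 KD and 70.7% to 86.2% of domains longer. Each choice set 1 CTR library against 1 NPM1 KD library. The matching shares of all shared regions were not counted, so these percentages are not read as a feature of the domains. Choosing on both NPM1 KD libraries alone gave 843 domains and differences of 1.26 Mb, −855.5 peaks and 230 unbroken domains, against the 0.141 Mb, −82.5 peaks and 49.5 unbroken domains of the choice on CTR alone. The size of each difference, and whether the groups overlapped, thus depended on which libraries chose the domains.

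Most of the additional length closed gaps, and a smaller part of it lay at the edges. Of the 1.29 Mb, 0.953 Mb (73.9%) lay in gaps between peaks, 0.213 Mb (16.5%) at the 3′ edges and 0.124 Mb (9.6%) at the 5′ edges. All 4 libraries covered 94.8% of domain bases. Both NPM1 KD libraries and no CTR library covered 567 kb, and both CTR libraries and no NPM1 KD library 36.3 kb. The 567 kb had 9.86 CG per kb, against 10.9 in the bases covered by all 4 libraries.

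In single domains the difference was small. The gain of NPM1 KD over CTR had a median of 1.46% of the domain's width (1090 bp), with quartiles of 0.403% and 2.84% and a range of −5.78% to 14.7%. Covered length was higher in both NPM1 KD libraries than in both CTR libraries in 534 of 881 domains (60.6%) and lower in 21 (2.38%). Over all 20216 shared regions these shares were 43.9% and 4.9%, and over the 20 to 50 kb regions 51.5% and 2.26%. In the domains chosen on CTR alone it was higher in 151 of 705 (21.4%), below the share of all shared regions. Those domains were bounded by CTR peaks, so NPM1 KD length beyond them was not counted. The shared regions were merged from all 4 libraries, so the 2 shares are not like for like. Fewer broad peaks in both NPM1 KD libraries were counted in 250 domains (28.4%) and more in 14 (1.59%), against 8.32% and 1.57% of all shared regions and 18.3% and 1.21% of the 20 to 50 kb regions. A shared region with a single peak in a CTR library could not have fewer. The higher share is therefore not read as a feature of the domains. Broad peaks were fewer in 39 (5.53%) of the domains chosen on CTR alone, again below the 8.32% but in regions of other bounds. In the 843 domains chosen on NPM1 KD alone these counts were 545 (64.7%) longer and 260 (30.8%) with fewer peaks. With peaks of −log10 q of at least 5, 132 of the 881 domains had fewer peaks. Of the 164 domains of 100 kb upward, 63 (38.4%) had fewer peaks and 106 (64.6%) more covered length. Shares of all shared regions under the same cutoff, width or choice of libraries were not counted, so these counts are a description only.

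No single domain passed the limma test of covered length. The lengths come from the broad peaks that formed the regions, so this test cannot decide whether a domain differs between the groups. In limma on log2(covered bp + 1000) over all 49835 regions, with Benjamini-Hochberg adjustment, 0 domains and 0.0% of regions were called. At an unadjusted p under 0.05 limma had 0 domains and 4570 regions. These counts changed with the model and the regions entered. With a variance trend limma had 298 domains (295 higher) and 4505 of 49835 regions at that p, and called 2 domains and 24 regions. Without regions of short mean covered length it had 48 domains and 1427 of 9585 regions, and called 0 of either. With −log10 q of at least 5 it had 140 domains and 1487 of 49835 regions, and called 2 domains and 86 regions. The median log2 difference was 0.02 over domains and 0.13 over all regions, and the smallest adjusted p of a domain was 0.588. Without NPM1 KD 1 the median log2 difference was 0.018 over domains and 0.033 over all regions, and without NPM1 KD 2 it was 0.024 and 0.122.

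The largest gains were at Syt9, a synaptotagmin, at Xkr6, at Dennd5b, at Bdp1, a subunit of the RNA polymerase III factor TFIIIB, and at the phosphatase gene Cdc14a. Covered length at Syt9 was 55093 and 53102 bp in CTR and 64988 and 62869 bp in NPM1 KD. At Xkr6 it was 51131 and 46697 bp in CTR and 57222 and 57202 bp in NPM1 KD, where 9 and 10 peaks stood against 1 and 1. At Bdp1 it was 46386 and 42840 bp against 52217 and 51185 bp. These domains were selected for their difference, so it is a description, and the stretch printed above for Xkr6 lay where both CTR libraries had a gap.

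Losses were smaller, and among the domains with the largest were Vgll4, a TEAD cofactor, Dlc1, a GTPase-activating protein, Grip1, a glutamate receptor scaffold, and Zmynd11, a reader of histone methylation. Vgll4 was covered over 63350 and 63912 bp in CTR and 62408 and 61359 bp in NPM1 KD. At Dlc1 the values were 94903 and 94611 bp in CTR and 92538 and 92789 bp in NPM1 KD, with 2 and 1 peaks against 4 and 4. Both NPM1 KD libraries were shorter than both CTR libraries in each of these domains, which were selected for that.

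The most broken domain was Zfhx4, a zinc finger homeobox gene, with 22, 15, 15 and 8 peaks in the 4 libraries in the order above. Fbxl7 had 13, 17, 8 and 10, the guidance ligand gene Slit2 15, 11, 7 and 9, Zcchc7 12, 13, 6 and 6, and Cdc14a 11, 11, 6 and 6. In the last 4 both NPM1 KD libraries had fewer peaks than both CTR libraries, and at Zfhx4 NPM1 KD 1 and CTR 2 were equal. Covered length at Zfhx4 was 164767 and 170875 bp in CTR and 178657 and 182534 bp in NPM1 KD.

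Gaps lay mostly toward the 3′ end of the domain. CTR 1 and 2 had 1866 and 1500 gaps with medians of 666 and 965 bp, while NPM1 KD 1 and 2 had 642 and 1057 with medians of 706 and 627 bp. In the 4 libraries 76.3%, 77.7%, 79% and 72.9% of them lay 3′ of the domain's midpoint on the leading gene's strand, and 55.2%, 56.3%, 60.9% and 56.6% in the last 25% of the width. The start of at least 1 coding transcript lay in 56, 45, 4 and 89 of the gaps, or 3.00%, 3.00%, 0.623% and 8.42% of them. NPM1 KD 2 had the most, in 84 domains, and its gaps held 19.4 CG per kb against 10.5, 9.99 and 7.78 in CTR 1, CTR 2 and NPM1 KD 1. The 2 NPM1 KD libraries were thus the lowest and the highest in gaps at transcript starts.

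**Figure D5:**
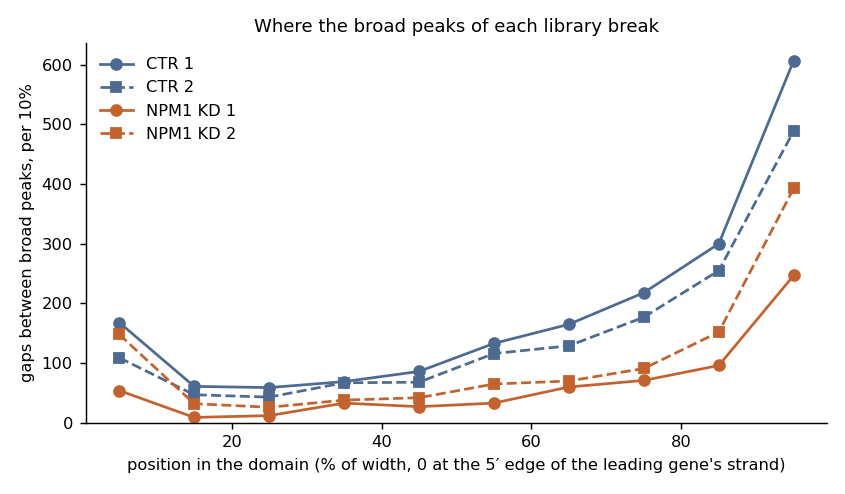
Number of gaps between broad peaks of each library (y axis) per 10% of the domain's width (x axis, 0 at the 5′ edge on the leading gene's strand). In every library the count is highest in the last 10% of the width, with 607 and 489 gaps in the CTR libraries and 247 and 393 in the NPM1 KD libraries.

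The narrow peak lists were not used to choose the domains. Narrow peaks covered 67.5 and 65.5 Mb of the domains in CTR and 68.1 and 68.8 Mb in NPM1 KD, in 9713, 10686, 9341 and 8097 peaks. NPM1 KD was higher in covered length and lower in number than CTR in both libraries. Narrow covered length was higher in both NPM1 KD libraries in 513 domains (58.2%) and lower in 14 (1.59%), against 40.1% and 5.33% of the shared regions. Narrow peaks were fewer in 242 domains (27.5%) and more in 46 (5.22%), against 7.51% and 10.6% of the shared regions with a narrow peak in all 4 libraries. In 401 domains both the broad and the narrow length were higher in both NPM1 KD libraries than in both CTR libraries. The matching share of all shared regions was not counted. Both lists were called on the same reads, so they are not independent measurements.

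Height moved the other way from length. The median over domains of the highest narrow fold was 23.2 and 22.8 in CTR 1 and 2 against 21.8 and 18.9 in NPM1 KD 1 and 2 (23.0 ± 0.298 and 20.3 ± 2.1, n = 2, exact permutation p = 0.333, two-sided, the smallest possible). It was lower in both NPM1 KD libraries in 397 domains (45.1%) and higher in 32 (3.63%), against 20.8% and 15.6% of the shared regions and 36.0% and 5.51% of the 20 to 50 kb regions. NPM1 KD 2 decided much of the size. The median log2 difference over domains was −0.16, and −0.05 without NPM1 KD 2, while over all regions with a narrow peak it was −0.03, and 0.06 without it. Folds are relative to each library's own background, so a change of the mark over the whole genome cannot be told apart from no change.

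In limma on the log2 fold over 17946 regions, 0 domains were called, against 0.0279% of regions. At an unadjusted p under 0.05 limma had 54 of 881 domains and 929 of 17946 regions. Of the 54 domains, 53 were lower in NPM1 KD. Ncoa1, a nuclear receptor co-activator named here after its value was seen, was the 1 that was higher. The lowest adjusted p of a domain was 0.851. Without NPM1 KD 1 the median log2 difference was −0.24 over domains and −0.11 over all regions, and without NPM1 KD 2 it was −0.05 and 0.06. With the replicate number as a block limma called 3 domains, of which 2 were lower, and 81 of 17946 regions.

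Domains with the highest folds were Arid1a, a BAF subunit, the second Gse1 domain, Wwc2, Cyth3, an exchange factor for ARF proteins, and the G-protein subunit Gnb1. At Arid1a the fold was 101.6 and 64.7 in CTR 1 and 2 against 81.5 and 54.1 in NPM1 KD 1 and 2, and the groups overlapped. The second Gse1 domain had 88.4 and 86.5 in CTR and 74.8 and 45.4 in NPM1 KD, and the first Rere domain 70.9 and 69.9 against 63.8 and 39.2. NPM1 KD 2 was the lowest library in all 3. The lowest mean folds, 5.20 to 5.72, were those of the third Ptprg domain, of Prune2, of the talin gene Tln2, of Tmcc1 and of Btbd9, all without a gene start inside. Domains had a median fold, averaged over the libraries, of 21.8, against 18.1 in the 20 to 50 kb regions.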

How the data were processed

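Groups came from the sample titles. The authors aligned paired-end reads to mm10 (GRCm38) with Bowtie2 2.3.4.1 and called broad and narrow peaks with MACS2 once per library (version 2.2.6 in the submitters' processing notes, another in the methods). The deposited lists hold peak coordinates, a score (−log10 q multiplied by 10 and truncated), the fold (a ratio of pileup over the library's background), and −log10 p and q values, and no read counts. In each list 97.3% to 99.8% of 1000 solved narrow peaks fitted 1 background for the whole genome, so copy number was not removed.

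Broad peaks were merged on chromosomes 1 to 19, and genes were taken from GENCODE M21 on GRCm38, without 64 read-through models as leading genes. Covered length and highest narrow fold per region were compared with limma 3.58.1 (R 4.3.3, Benjamini-Hochberg, threshold 0.05), tested on simulated data first, and fold medians with exact permutation tests. Broad peak counts and lengths summed over the domains are given with no test, since those peaks chose the domains. The limma values of covered length per region rest on the same peaks and cannot decide a difference between the groups. Named domains are the 10 widest, the 5 with most gene starts, most peaks, largest gain and loss, and highest and lowest fold, those at the limit, without a coding gene or at genes the study discusses, and list members. Some named domains and list members are not reported here. Domains, lists and rules were chosen with earlier results of these data known. The methods give each replicate its own passage and transfection batch. Deviations of same-numbered libraries correlated at 0.221 for covered share and 0.428 for log2 fold over the domains, with only 2 pairs. With 2 libraries a group, the limma p-values set each difference against a spread estimated from these libraries and partly pooled over all tested regions. The exact permutation p could not fall below 0.333.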

Additional observations from a re-analysis of the deposited data

How the results depend on the processing

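The 1.29 Mb higher covered length in NPM1 KD, the difference of −833.5 broad peaks and the 183.5 more unbroken domains kept their direction under every alternative run. Only peaks of −log10 q of at least 5 gave 2.72 Mb and −324.5 peaks, with 132 domains of fewer peaks. Merging peaks within 1 kb into 1172 domains gave 3.36 Mb, −1280 peaks and 53.5 unbroken domains. A limit of 75 kb (341 domains, 274 coding genes) gave 0.561 Mb, −378 peaks, 70.5 unbroken domains, 211 domains of more length and 100 of fewer peaks, and narrow lists gave 1.91 Mb and −1480.5 peaks. Alternatives chosen after seeing the data gave 0.141 Mb, −82.5 peaks, 49.5 unbroken domains, 151 domains of more length and 39 of fewer peaks for domains chosen on CTR alone, 0.512 to 0.939 Mb (0.578 and 0.890 between) for those chosen on a library of each group, −405.5 peaks with gaps of 1 kb joined, and 290.5 unbroken domains with gaps joined to the longest of the shortest gaps. Shares of all shared regions were not counted under these alternatives, so their counts of domains are a description only. Leaving out 1 library gave 0.982 to 1.60 Mb, −1041 to −626 peaks and 107.5 to 259.5 unbroken domains. In limma, covered length had 0 to 7 calls and fold 0 to 67 when 1 library was left out, and covered length had 2 calls with a variance trend and 2 with −log10 q of at least 5, where many spreads were 0. A replicate block, pairing same-numbered libraries, kept 1.29 Mb, −833.5 peaks and 183.5 unbroken domains, with 0 limma calls for covered length and 3 for fold. It changed no other call. Leaving out 1 library leaves a single library in that group, so the limma calls of those runs decide nothing. Without either NPM1 KD library, covered length was called in a larger share of all regions than of domains. For fold the share was larger in domains without NPM1 KD 1, and larger in all regions without NPM1 KD 2. The cause of the changes between these runs was not tested.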

Other observations

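Domains were unevenly spread over chromosomes. Per 100 autosomal coding genes of at least 100 kb there were 61.4 domains on chromosome 8, 53.5 on chromosome 15, 52.5 on chromosome 11 and 52.1 on chromosome 17, against 24.7 on chromosome 16. Chromosome 15 held the Pvt1, HoxC, Hsf1, Lncppara, Ext1 and Fbxl7 domains, and chromosome 8 the Hand2, Ctcf, Wwc2 and Gse1 domains. A genome-wide background was used for the peaks, and the part of copy number in N2a cells was not tested.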
